A study of Mus musculus with 35 samples.

Results

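The 10 genes described here belong to the BCL2 family of cell death regulators and include the BH3-only members that are linked to the c-Jun N-terminal kinase, JNK. They were followed in NMuMG cells, an immortalised epithelial line from the mouse mammary gland. They were taken by symbol from a table of 20261 genes, and all 10 were found. The set was put together with earlier results of these data in view, and 1 value entered it: Bcl2l15 had been seen higher with the inhibitor from 72 h on. The other 9 were chosen by name. For all 10 genes the difference between the arms at 72 h, 96 h and 7 d is therefore given as a description, with no test.

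The inhibitor experiment holds 20 libraries of total RNA. Cells labelled JNKi, treated with a JNK inhibitor that the labels do not name, were set against cells labelled DMSO, the solvent control. Each arm was sampled at 24, 48, 72 and 96 h and at 7 d, with 2 replicates per group. All cells carry the genotype label WT, the strain label E9 and the cell type label NmuMG, so that each group rests on a single cell line. Every sample also carries a protocol for a TGF-β time course (2 ng/ml, renewed with the medium every 2 days). The titles of both arms begin with EMT TC, as do those of the TGF-β time course libraries. No label says outright whether the JNKi and DMSO cells received TGF-β. Whether the 2 replicates of a group came from separate cultures is not said in the labels. A p-value here rests on the spread between replicates, estimated over all 20 libraries together. That spread may be only technical. In bulk RNA, fewer cells of a type and less RNA per cell cannot be told apart.

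The libraries held 9.49 to 48.6 M reads, with the lowest total in JNKi at 7 d, replicate 1. The replicates of a group differed by more than counting noise in all 10 groups, by a chi-square per degree of freedom of 8.80 (DMSO at 48 h) to 29.2 (JNKi at 7 d), so none were merged. All 8 epithelial markers examined, among them Cdh1, Epcam and the simple keratins, were present. Their summed level was 98833 to 105927 normalized reads in JNKi at 7 d and 334378 to 377344 in JNKi at 24 h. In DMSO it was 131192 to 166385 at 7 d and 328756 to 346361 at 24 h. The sum of 5 mesenchymal markers was 146467 to 155362 in JNKi at 7 d and 128918 to 144177 in JNKi at 24 h, and in DMSO it was 262998 to 297360 at 7 d and 130498 to 139182 at 24 h. The mesenchymal sum was lower in JNKi than in DMSO without overlap from 48 h on: it was 306096 to 334567 in JNKi and 365562 to 383545 in DMSO at 48 h, 355953 to 380292 and 448054 to 492479 at 72 h, and 338872 to 341528 and 482196 to 541390 at 96 h. The epithelial sum was lower in JNKi without overlap at 96 h (126318 to 133767 in JNKi and 144975 to 157667 in DMSO) and at 7 d. These sums move with time and with the arm beside the results below, and their part in those results was not tested. Of the markers of other cell types, the 6 leukocyte markers together had 955 to 2323 normalized reads. Ptprc, 1 of them, reached at most 17.5 (JNKi at 7 d), so nearly all of this sum came from the others. The 4 endothelial markers together had 59.1 to 408 normalized reads and the 3 adipocyte markers 0 to 19.6.

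The proteins of this family work by binding each other. BCL2, BCL-XL (Bcl2l1), MCL1 and BCL-W (Bcl2l2) keep the cell alive by holding the pore-forming members BAX and BAK (Bak1) in check. BH3-only proteins such as BIM (Bcl2l11), BMF, BIK and BID occupy the groove of these survival proteins or act on BAX and BAK directly, and so release cytochrome c and start the caspases. JNK is known to phosphorylate BIM and BMF, which are otherwise held on dynein and myosin motor complexes through their light chains, and to phosphorylate BCL2 and MCL1. In the mammary gland BIM and BMF are known for the death of the inner cells that hollows out the duct lumen. The binding and phosphorylation described above act on proteins, whereas RNA was measured here.

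Per kb of merged exon, which allows levels to be compared between genes, the survival factor Mcl1 stood highest with a mean of 2225 normalized reads per kb over the 20 libraries. Bak1 (1282), Bcl2l1 (1141), Bmf (959) and Bid (895) followed. Bcl2l11 (193 normalized reads per kb) and Bcl2l2 (181) lay well below them. Bcl2 (65.6), Bcl2l15 (61.4) and Bik (19.3) were the lowest. Among the survival genes most RNA per kb was thus Mcl1 and Bcl2l1, with little Bcl2, and among the BH3-only genes Bmf stood above Bcl2l11. Lengths came from the GENCODE M21 models on GRCm38, a different build from that of the counting, and isoforms such as BCL-XL and BCL-XS, or BIM-EL, BIM-L and BIM-S, are not separated in a gene count.

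**Figure D1:**
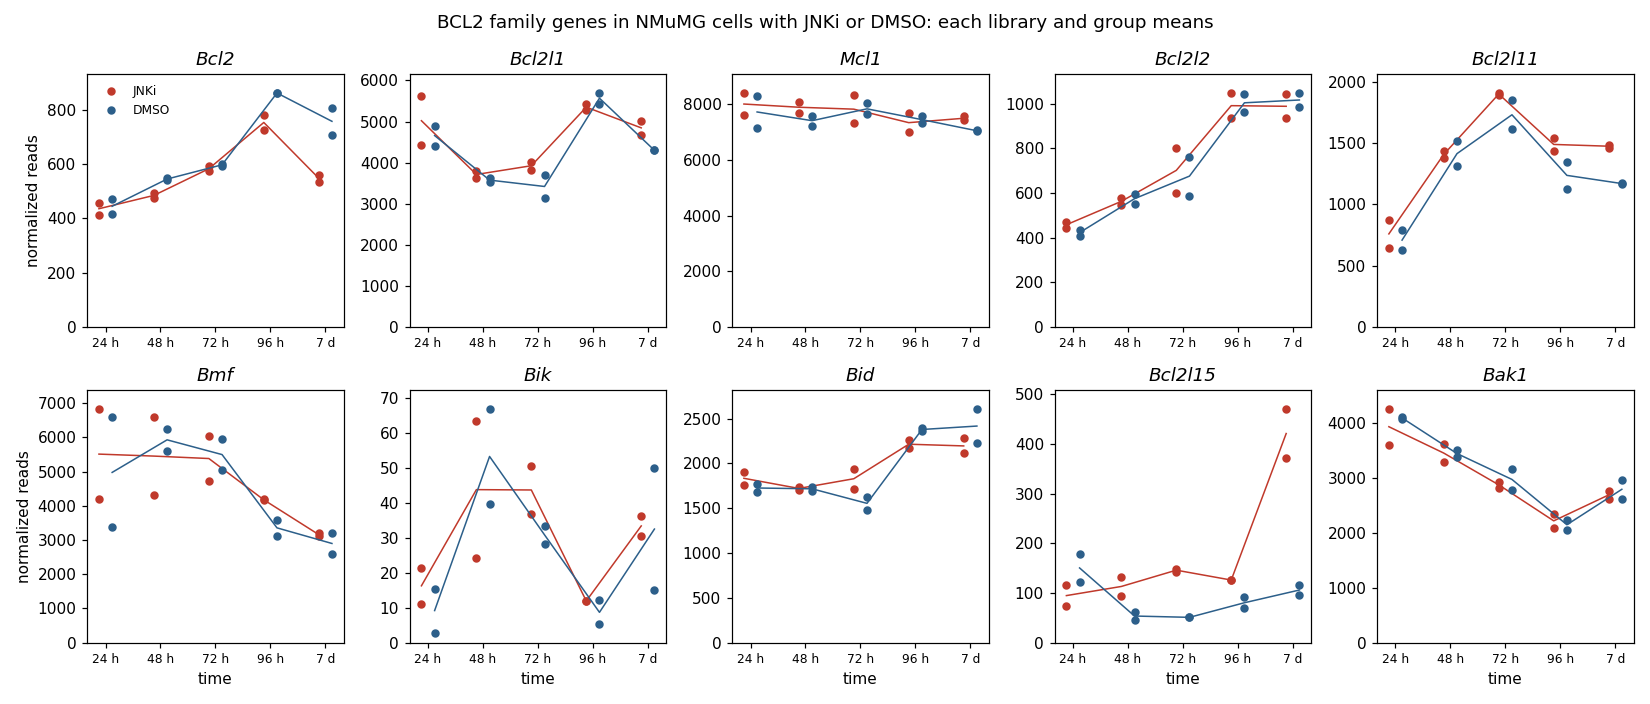
Normalized reads of the 10 genes (y axis, from 0, a separate scale for each gene) at 24, 48, 72 and 96 h and 7 d (x axis, equally spaced). Points are single libraries and lines join the means of the 2 replicates, with JNKi in red and DMSO in blue. Mcl1 stays nearly flat, Bak1 is lower and Bcl2l2 higher at 96 h and 7 d than at 24 h in both arms, and Bcl2l15 and Bcl2 are the genes whose arms lie furthest apart on a log2 scale at 7 d, in opposite directions.

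With time the RNA of the family moved in both directions. Of the 10 genes 9 changed over the 5 DMSO times (limma, moderated F-test, adjusted p under 0.05), and Mcl1 was the exception (adjusted p = 0.498). Over all genes tested, 78% passed the same F-test, so a high count was the rule in these cells. At 96 h against 24 h in DMSO, 5 of the 10 rose and 2 fell, beside 63.3% of all genes called (32.7% higher and 30.5% lower). Bcl2l15 counts among the 9 of the F-test and among these 2, although its DMSO values from 72 h on entered its choice. Its part in these DMSO counts is therefore only a description. The median log2 change was 0.22 over the 10 genes and 0.07 over all genes tested. At 7 d against 24 h in DMSO, again 5 rose and 2 fell, beside 59.9% of all genes (32% higher and 28% lower), with medians of 0.18 and 0.06. In JNKi the same changes could be tested for 9 genes, without Bcl2l15. Of these 4 rose and 1 fell at 96 h, beside 59.8% of all genes (30.8% higher and 29% lower), and 4 rose and 2 fell at 7 d, beside 58% (31.7% higher and 26.3% lower). The medians of the 9 genes were 0.10 at 96 h and 0.26 at 7 d, beside 0.07 and 0.06 over all genes. These shares lie near the background and do not set the family apart. The 96 h and 7 d comparisons of an arm share their 24 h libraries, so they are not independent.

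No difference between JNKi and DMSO cells passed the test for any of the 10 genes at 24 h or at 48 h. By limma 0 of 10 were called at either time, beside 0% of all genes at 24 h and 0% at 48 h. Bcl2l15 alone had an unadjusted p under 0.05, which made 1 gene at 24 h and 1 at 48 h. The edgeR quasi-likelihood test and DESeq2 on recovered reads also called 0 of the 10 at both times. The values of the 2 arms did not overlap for 2 genes at 24 h and for 3 genes at 48 h, beside 27.1% and 29.2% of all genes tested. From 72 h on, nothing is read from such counts, because the choice of the genes used that comparison. They were 6 genes without overlap at 72 h, 6 at 96 h and 5 at 7 d, beside 36.4%, 39.4% and 58.2% of all genes.

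**Figure D2:**
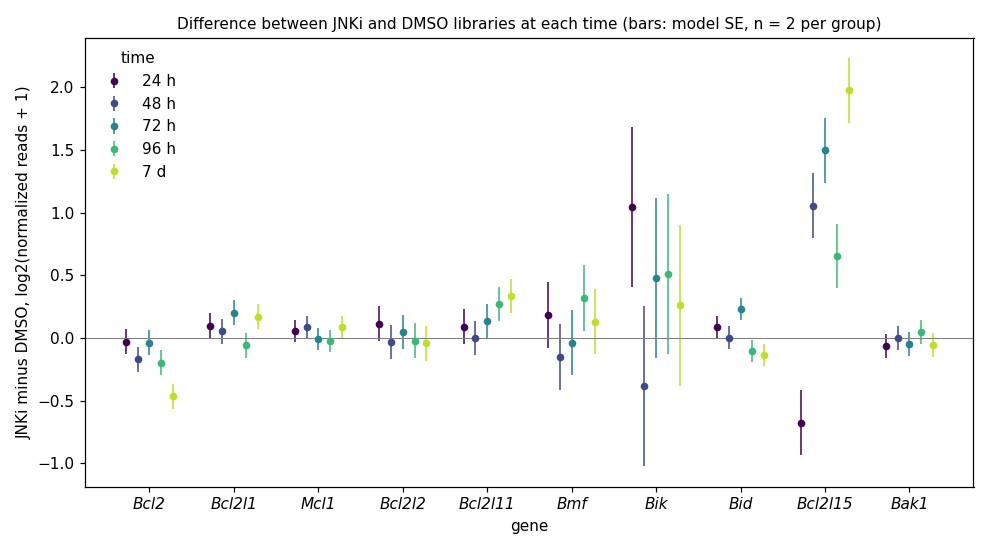
Log2 difference, JNKi minus DMSO, of log2(normalized reads + 1) (y axis) for each of the 10 genes (x axis) at the 5 times, with bars of 1 model standard error. Only the 24 h and 48 h differences were tested, and none passed. Bcl2l15 lies at -0.67 at 24 h and above 0 at the other times, with 1.98 at 7 d, Bcl2 lies at -0.46 at 7 d, and Mcl1 lies between -0.02 and 0.09.

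Among the survival genes Bcl2 is the founding member, a membrane protein that binds BH3-only proteins and BAX. In JNKi cells it had 414 and 457 normalized reads at 24 h, then 474 and 495 at 48 h, 591 and 574 at 72 h, then 727 and 780 at 96 h and finally 535 and 561 at 7 d. In DMSO cells it had 417 and 471 at 24 h, then 543 and 547 at 48 h, 600.4 and 594 at 72 h, then 862 and 863 at 96 h and finally 808 and 708 at 7 d. Both arms were at their highest at 96 h, and the arms did not overlap at 48 h, 72 h, 96 h or 7 d, with JNKi the lower each time. The rise at 96 h against 24 h was 0.79 on the log2 scale in JNKi (SE 0.10, limma adjusted p = 4.45e-06) and 0.96 in DMSO (SE 0.10, limma adjusted p = 4.19e-07). At 7 d against 24 h it was 0.33 in JNKi (limma adjusted p = 0.00900) and 0.77 in DMSO (limma adjusted p = 7.33e-06). The call in JNKi at 7 d was lost without JNKi 24 h replicate 1 (0.26, limma adjusted p = 0.0787) or JNKi 7 d replicate 2 (0.30, limma adjusted p = 0.0613). Between the arms, JNKi minus DMSO was -0.17 at 48 h (SE 0.10, limma adjusted p = 1), and, with no test, -0.04 at 72 h, -0.19 at 96 h and -0.46 at 7 d. At 7 d that is 548 ± 18.0 normalized reads in JNKi and 758 ± 70.9 in DMSO (SD, n = 2 each). The 7 d difference was -0.56 to -0.37 when each of the 20 libraries was left out in turn. In GRCm38 the gene spans chromosome 1 from 106538178 to 106714274 on the minus strand, and an annotated antisense gene, D630008O14Rik, shares 6.09% of its exon bases.

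Bcl2l2 encodes BCL-W, a survival protein close to BCL-XL. It had 471 and 444 normalized reads at 24 h and 934 and 1044 at 7 d in JNKi, and 409 and 435 at 24 h and 986 and 1048 at 7 d in DMSO. The 24 h and 7 d values did not overlap in either arm, and the 2 arms overlapped at 72 h, 96 h and 7 d. It rose most among the survival genes, by 1.11 on the log2 scale at 7 d against 24 h in JNKi (SE 0.14, limma adjusted p = 5.80e-06) and by 1.27 in DMSO (SE 0.14, limma adjusted p = 1.13e-06). The rises at 96 h were 1.11 in JNKi and 1.25 in DMSO, both past the test (limma adjusted p = 3.62e-06 and 7.85e-07). Another annotated protein-coding gene on the same strand, Gm20521, shares 14.6% of its exon bases.

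Bcl2l1 and Mcl1, the survival genes with the most RNA, moved least. Bcl2l1 had 4417 and 5622 normalized reads at 24 h, then 3621 and 3799 at 48 h, 4024 and 3821 at 72 h, then 5280 and 5419 at 96 h and finally 4675 and 5016 at 7 d in JNKi. In DMSO it had 4413 and 4903 at 24 h, then 3622 and 3523 at 48 h, 3686 and 3149 at 72 h, then 5698 and 5439 at 96 h and finally 4300.4 and 4297 at 7 d. In both arms the 48 h and 72 h values lay below all 24 h values and the 96 h values above all those of 48 h and 72 h. Over the 5 DMSO times it changed (limma, moderated F-test, adjusted p = 5.13e-05). At 96 h against 24 h the log2 change was 0.10 in JNKi (SE 0.10, limma adjusted p = 0.389) and 0.26 in DMSO (SE 0.10, limma adjusted p = 0.0329). The DMSO call was lost when DMSO 24 h replicate 1 (0.18, limma adjusted p = 0.211), DMSO 96 h replicate 1 (0.23, 0.140) or DMSO 96 h replicate 2 (0.29, 0.0621) was left out. Without JNKi 24 h replicate 2 the JNKi change was 0.28 (limma adjusted p = 0.0337). Between the arms its difference was 0.20 at 72 h, -0.057 at 96 h and 0.17 at 7 d (no test).

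Mcl1, which encodes a short-lived survival protein whose turnover is set largely by phosphorylation and ubiquitination, had 7003 to 8412 normalized reads over the 10 JNKi libraries and 7037 to 8290.5 over the 10 DMSO libraries. Its highest group mean was 1.14 times its lowest, the narrowest range of the 10 genes. At 7 d the log2 difference from 24 h was -0.09 in JNKi (SE 0.09, limma adjusted p = 0.370) and -0.13 in DMSO (limma adjusted p = 0.213). JNKi minus DMSO at 7 d was 0.09 with no test.

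The BH3-only genes differed among themselves with time: Bcl2l11 and Bid rose in both arms, Bmf fell at 7 d, and Bik was too low to read closely. Bcl2l11, which encodes BIM, had 875 and 642 normalized reads at 24 h, then 1380 and 1437 at 48 h, 1911 and 1891 at 72 h, then 1544 and 1435 at 96 h and finally 1461 and 1489 at 7 d in JNKi. In DMSO it had 788.5 and 627 at 24 h, then 1313 and 1516 at 48 h, 1849 and 1614 at 72 h, then 1125 and 1349 at 96 h and finally 1168 and 1171 at 7 d. All later values lay above all 24 h values in both arms, the peak was at 72 h, and JNKi stood above DMSO without overlap at 72 h, 96 h and 7 d. The rise at 7 d against 24 h was 0.98 on the log2 scale in JNKi (SE 0.14, limma adjusted p = 1.91e-05) and 0.73 in DMSO (SE 0.14, limma adjusted p = 0.000237). At 96 h it was 0.99 in JNKi (limma adjusted p = 1.17e-05) and 0.81 in DMSO (limma adjusted p = 7.26e-05). The difference between the arms was 0.14 at 72 h, 0.27 at 96 h and 0.33 at 7 d (no test). With each library left out in turn it was 0.040 to 0.24 at 72 h (lowest without DMSO 72 h replicate 2), 0.14 to 0.40 at 96 h (lowest without DMSO 96 h replicate 1) and 0.32 to 0.35 at 7 d. At 7 d the means were 1475 ± 19.4 normalized reads in JNKi and 1170 ± 2.26 in DMSO (SD, n = 2 each).

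Bcl2l11 is a known target of FOXO factors, and its upstream sequence is shown because it held the only match among the motifs searched. The 5 motifs were AP-1 (TGANTCA), CRE (TGACGTCA), the SNAIL-type E-box (CACCTG), FOXO (TGTTTAC) and C/EBP-ATF (TGATGCAA), read on both strands over windows from 250 bases before to 50 bases after annotated starts. They occur in 7.81%, 1.79%, 20.2%, 3.65% and 0.895% of 32851 mouse promoters. Of the 10 genes 9 have promoters in the RefSeq table used, 14 promoters in all, with Bik the gene without an entry. The FOXO letters stand 227 bases before 1 annotated start of Bcl2l11, in reverse orientation, and are in capitals below. The 250 bases before that start, from RefSeq on GRCm38.p6, chr2:128125788-128126037, plus strand, were as follows.

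Bcl2l11 upstream: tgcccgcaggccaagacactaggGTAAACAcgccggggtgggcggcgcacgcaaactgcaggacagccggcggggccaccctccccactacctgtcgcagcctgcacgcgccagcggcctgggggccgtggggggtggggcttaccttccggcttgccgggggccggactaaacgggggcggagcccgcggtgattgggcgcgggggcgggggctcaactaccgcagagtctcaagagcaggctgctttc

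No other member's window held any of the 5 motifs, which says only that these letters are absent from those windows.

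Bmf encodes a BH3-only protein that JNK phosphorylates and that is held by a dynein light chain on myosin V motors. It had 6834 and 4187.5 normalized reads at 24 h, then 6602 and 4304 at 48 h, 4731 and 6033 at 72 h, then 4191 and 4160.2 at 96 h and finally 3205 and 3112 at 7 d in JNKi. In DMSO it had 6585 and 3367.5 at 24 h, then 6251 and 5605 at 48 h, 5051 and 5944 at 72 h, then 3123 and 3589 at 96 h and finally 2604 and 3196 at 7 d. The 24 h replicates were far apart in both arms, with replicate 1 above replicate 2 by 0.71 on the log2 scale in JNKi and by 0.97 in DMSO. The fall at 7 d against 24 h was -0.76 in JNKi (SE 0.26, limma adjusted p = 0.0196) and -0.71 in DMSO (SE 0.26, limma adjusted p = 0.0276). Both moved with the libraries used. Without JNKi 24 h replicate 1 the JNKi change was -0.41 (limma adjusted p = 0.248), and without JNKi 7 d replicate 1 or replicate 2 it was -0.78 or -0.74 (limma adjusted p = 0.0637 or 0.0802). The DMSO change was -0.22 without DMSO 24 h replicate 1 (limma adjusted p = 0.468), -1.19 without DMSO 24 h replicate 2 (limma adjusted p = 0.00130) and -0.56 without DMSO 7 d replicate 1 (limma adjusted p = 0.172). At 96 h against 24 h the change was -0.36 in JNKi (limma adjusted p = 0.245) and -0.49 in DMSO (limma adjusted p = 0.110), and neither passed. These values moved with the 24 h replicate left out. Without JNKi 24 h replicate 1 the JNKi change was -0.0041 (limma adjusted p = 0.993), and without replicate 2 it was -0.71 (0.0539). Without DMSO 24 h replicate 1 the DMSO change was -0.0085 (limma adjusted p = 0.981), and without replicate 2 it was -0.98 (0.00401). Between the arms Bmf differed by 0.32 at 96 h, where the arms did not overlap, and by 0.13 at 7 d (no test; -0.017 to 0.28 with each library left out in turn).

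Bid encodes the BH3-only protein that caspase-8 cleaves, and so joins the death receptors to mitochondria. It had 1763 and 1904 normalized reads at 24 h and 2279 and 2111 at 7 d in JNKi, and 1677 and 1775 at 24 h and 2609 and 2224 at 7 d in DMSO. The 7 d values lay above the 24 h values in both arms. The rise at 7 d was 0.26 in JNKi (SE 0.09, limma adjusted p = 0.0197) and 0.48 in DMSO (SE 0.09, limma adjusted p = 0.000227). At 96 h it was 0.27 in JNKi (limma adjusted p = 0.0144) and 0.46 in DMSO (limma adjusted p = 0.000252). The JNKi calls were lost without JNKi 24 h replicate 1 (0.22 at 96 h and 0.20 at 7 d, limma adjusted p = 0.102 and 0.127), without JNKi 96 h replicate 2 (0.24, limma adjusted p = 0.0855) and without JNKi 7 d replicate 1 (0.20, limma adjusted p = 0.139). JNKi minus DMSO was 0.23 at 72 h, -0.10 at 96 h and -0.14 at 7 d (no test; -0.25 to -0.020 at 7 d with each library left out in turn).

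Bik, a BH3-only protein of the endoplasmic reticulum, was close to the limit of counting. Its values in JNKi were 21.4 and 11.2 normalized reads at 24 h, then 24.2 and 63.5 at 48 h, 50.5 and 37 at 72 h, then 12 and 11.9 at 96 h and finally 30.5 and 36.4 at 7 d. In DMSO they were 15.5 and 2.9 at 24 h, then 39.7 and 67 at 48 h, 28.4 and 33.4 at 72 h, then 12.1 and 5.3 at 96 h and finally 15.1 and 50 at 7 d. The arms overlapped at every time but 72 h, where both JNKi values were the higher. In DMSO at 24 h it rested on 11 and 2 reads; the exact Poisson 95% interval of the 2 reads runs from 0.242 to 7.22 reads, for counting error only. At 7 d in DMSO it rested on 9 and 74 reads. The DMSO values at 7 d (15.1 and 50) and at 24 h (15.5 and 2.9) overlapped. On the log2 scale the change at 7 d against 24 h was 1.84 in DMSO (SE 0.64, limma adjusted p = 0.0205). In JNKi the change was 1.05 (limma adjusted p = 0.168). The DMSO value was 0.80 without DMSO 24 h replicate 2 (limma adjusted p = 0.336), 1.01 without DMSO 7 d replicate 2 (limma adjusted p = 0.253) and 2.88 without DMSO 24 h replicate 1 (limma adjusted p = 0.00185).

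Bak1, the pore-forming member of the set, fell in both arms. It had 3605 and 4256 normalized reads at 24 h, then 3291 and 3610 at 48 h, 2925 and 2820 at 72 h, then 2094.5 and 2340 at 96 h and finally 2756 and 2622 at 7 d in JNKi. In DMSO it had 4066 and 4114 at 24 h, then 3384 and 3500.5 at 48 h, 3157 and 2786 at 72 h, then 2055 and 2239 at 96 h and finally 2622 and 2961 at 7 d. The values were lowest at 96 h in both arms, and the 2 arms overlapped at every time. The fall at 96 h against 24 h was -0.82 in JNKi (SE 0.10, limma adjusted p = 2.01e-06) and -0.93 in DMSO (SE 0.10, limma adjusted p = 3.80e-07). At 7 d it was -0.54 in JNKi (limma adjusted p = 0.000162) and -0.55 in DMSO (limma adjusted p = 0.000124). Exons of 2 opposite-strand models, both named Ggnbp1, share 7.42% and 3.31% of the bases of Bak1 exons. Ggnbp1 had at most 137 normalized reads, and whether counting used strand is not given in the sources used here.

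**Figure D3:**
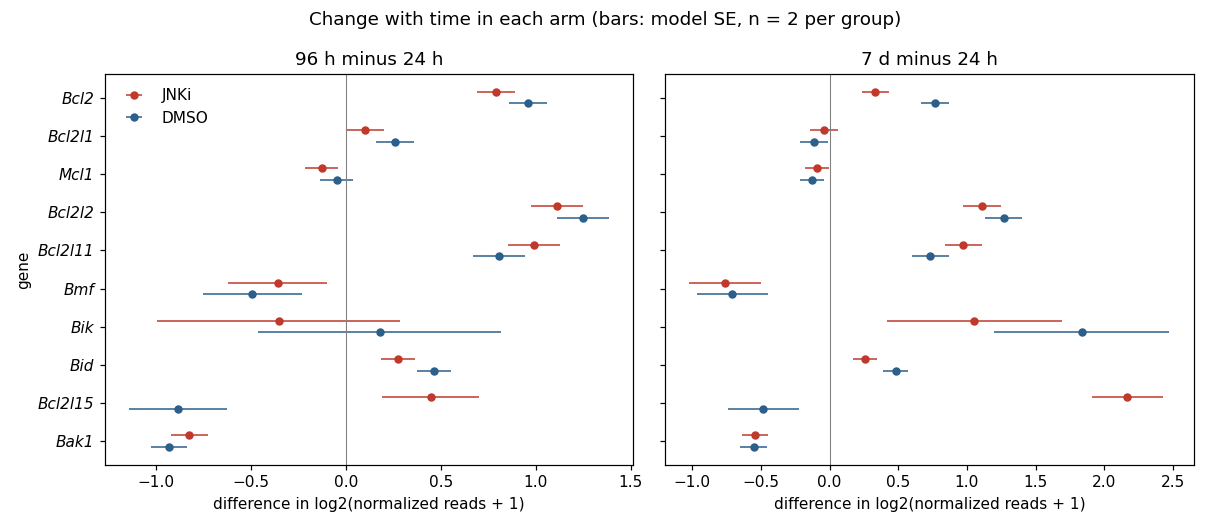
Log2 change of each gene (x axis in log2 units) at 96 h and at 7 d against 24 h, in JNKi (red) and DMSO (blue), with bars of 1 model standard error. Bcl2l2, Bcl2l11 and Bcl2 lie to the right of 0 and Bak1 to the left in both arms, whereas Bcl2l15 lies to the right in JNKi (2.17 at 7 d, no test) and to the left in DMSO (-0.48 at 7 d).

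Bcl2l15 encodes a small protein with BH2 and BH3 regions, also called BFK, whose RNA in mice is known mainly from the gut. It had 73.1 and 117 normalized reads at 24 h, then 93.4 and 133 at 48 h, 143 and 149 at 72 h, then 126 and 126 at 96 h and finally 371.5 and 471 at 7 d in JNKi. In DMSO it had 122 and 179 at 24 h, then 61.8 and 45.6 at 48 h, 51.1 and 51 at 72 h, then 69.6 and 91.3 at 96 h and finally 116 and 96 at 7 d. JNKi lay below DMSO without overlap at 24 h and above it without overlap at 48 h, 72 h, 96 h and 7 d. Only JNKi at 7 d (421 ± 70.4, SD, n = 2) stood apart from all other groups. Next in order were DMSO at 24 h and JNKi at 72 h, which overlapped, and the lowest were DMSO at 48 h and 72 h, which also overlapped. The highest group mean (JNKi at 7 d) was 8.25 times the lowest (DMSO at 72 h), on 32 to 673 reads per library. This was the widest range of group means of the 10 genes, but both groups entered the choice of Bcl2l15. Its rank is thus only a description. Over single libraries the range of Bik was wider, with a highest value 23.1 times its lowest, against 10.3 times for Bcl2l15.

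In DMSO cells all Bcl2l15 values after 24 h lay below both 24 h values. The DMSO values from 72 h on entered the choice of the gene. Its changes with time in DMSO are therefore given as a description. At 96 h against 24 h Bcl2l15 was lower by 0.88 on the log2 scale in DMSO (SE 0.26). The 96 h change was -0.61 without DMSO 24 h replicate 2 and -0.69 without DMSO 96 h replicate 1. At 7 d the DMSO change was -0.48. It was -0.75 without DMSO 24 h replicate 1 and -0.21 without DMSO 24 h replicate 2. In JNKi the log2 change was 0.45 at 96 h and 2.17 at 7 d, with no test. Between the arms JNKi minus DMSO was -0.67 at 24 h (SE 0.26, unadjusted p = 0.0184, limma adjusted p = 1) and 1.06 at 48 h (unadjusted p = 0.000777, limma adjusted p = 0.582). Neither passed the test over all genes. The 48 h adjusted p was 0.0922 to 1 over the alternatives. The differences that chose the gene were 1.50 at 72 h, 0.66 at 96 h and 1.98 at 7 d, given with no test. With each library left out in turn they were 1.47 to 1.53 at 72 h, 0.46 to 0.85 at 96 h and 1.81 to 2.15 at 7 d.

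The sequence before the Bcl2l15 start is shown for the gene that differed most between the arms and held none of the 5 motifs. It covers the 250 bases before the RefSeq start on GRCm38.p6, chr3:103832446-103832695, plus strand, in lower case throughout. The GENCODE M21 model of the gene starts earlier, at 103832601, so the end of this stretch lies inside that model.

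Bcl2l15 upstream: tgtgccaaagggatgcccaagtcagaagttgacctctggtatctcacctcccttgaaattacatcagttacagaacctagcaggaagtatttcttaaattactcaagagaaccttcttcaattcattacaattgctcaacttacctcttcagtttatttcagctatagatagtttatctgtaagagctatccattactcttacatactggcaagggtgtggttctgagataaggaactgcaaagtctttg

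In the GENCODE M21 models 26% of the exon bases of Bcl2l15 are shared with Gm43064, a gene on the same strand that was not analysed here, and how such reads were assigned is not given in the sources used here.

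The 5 genes whose pattern was most like that of Bcl2l15, among 11598 genes with a group mean of at least 50, were Ssx2ip (r = 0.90), S100a9 (0.88), Gsto1 (0.87), Rap2a (0.86) and Slc37a2 (0.86). These are Pearson correlations of log2 values over the 20 libraries, given with no p because libraries share groups and times. Over the 10 group means r was 0.91, 0.88, 0.94, 0.94 and 0.91 in the same order. S100a9, a calcium-binding protein best known from myeloid cells and inflamed epithelia, had 84.3 ± 21.3 normalized reads at 7 d in JNKi and 4.55 ± 0.64 at 7 d in DMSO. Slc37a2, a sugar-phosphate carrier of the endoplasmic reticulum, had 104 ± 17.5 in JNKi and 41.0 ± 1.56 in DMSO at 7 d (SD, n = 2 each). At 24 h S100a9 averaged 20 in JNKi and 27.2 in DMSO, and Slc37a2 27.4 and 29.05. Of these groups only JNKi at 7 d reached the mean of 50 needed for the ranking. Bcl2l15 was chosen from JNKi against DMSO from 72 h on. A high JNKi value at 7 d is thus built into the ranking, and these differences between the arms are only a description.

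The other genes of the pathway were read from 4 lists, chosen with earlier results of these data known. Of 18 other BCL2 family genes 16 were read here and 10 had enough reads to be tested; Hrk, Bcl2a1a, Bcl2a1c, Bcl2l10, Bcl2l14 and Moap1 did not. Between the arms at 7 d, 0 of these 10 were called by limma, edgeR or DESeq2, and 0 had an unadjusted limma p under 0.05. At 7 d against 24 h in DMSO, 2 rose and 2 fell, beside the 59.9% of all genes called there, with a median log2 change of -0.01 (0.06 over all genes). The 2 that rose are the p53-inducible BH3-only genes Pmaip1, which encodes NOXA, an antagonist of MCL1 (1.32, SE 0.09, limma adjusted p = 9.95e-09), and Bbc3, which encodes PUMA (1.23, SE 0.17, limma adjusted p = 1.47e-05). Pmaip1 averaged 3832 ± 184 normalized reads at 7 d and 1535 ± 153 at 24 h in DMSO (SD, n = 2 each). The changes were 1.11 for Pmaip1 and 1.28 for Bbc3 in JNKi (limma adjusted p = 1.06e-07 and 1.21e-05). Bcl2l13 fell by 0.56 in DMSO (limma adjusted p = 1.98e-05), and Bad, a BH3-only gene whose protein is held by 14-3-3 when phosphorylated, by 0.37 (limma adjusted p = 0.0451). The Bad call was lost without DMSO 24 h replicate 2 (-0.18, limma adjusted p = 0.413), without DMSO 7 d replicate 1 (-0.15, 0.474) and without any of 8 libraries of other groups (limma adjusted p of 0.0518 to 0.0549). Bok, the most abundant gene of this list, differed by 0.01 at 7 d against 24 h in DMSO (limma adjusted p = 0.953) and by -0.23 between JNKi and DMSO at 7 d (limma adjusted p = 0.459).

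Of 23 regulators of BH3-only proteins and MCL1, 8 rose and 7 fell at 7 d against 24 h in DMSO, beside 32% higher and 28% lower of all genes, with a median of 0.13 (0.06 over all genes). The largest rises were those of the stress-response factor Ddit3, which encodes CHOP (3.76, SE 0.25, limma adjusted p = 6.91e-09), and of Trib3 (1.77, limma adjusted p = 1.32e-05). The largest falls were those of the 14-3-3 genes Ywhae (-0.85) and Ywhaz (-0.81), whose proteins bind phosphorylated partners. At 7 d in JNKi against DMSO, 0 rose and 3 fell by limma, beside 10.2% of all genes called, a share near the background, with a median of -0.06 (0.02 over all genes). Ddit3 fell by 0.86 (limma adjusted p = 0.0407), to 1089 ± 53.7 normalized reads in JNKi, against 2000 ± 473 in DMSO. Trib3 fell by 0.83 (limma adjusted p = 0.0385). Jun, the transcription factor that JNK phosphorylates, fell by 0.57 (SE 0.15, limma adjusted p = 0.0272), with 1709 ± 268 normalized reads in JNKi and 2525 ± 248 in DMSO (SD, n = 2 each). These 3 calls were lost when single 7 d libraries were left out, in part with a difference as large as before. For Ddit3 the difference was -0.81 without JNKi 7 d replicate 1, -0.91 without JNKi 7 d replicate 2 and -0.61 without DMSO 7 d replicate 1 (limma adjusted p = 0.203, 0.130 and 0.314). For Trib3 it was -0.61, -1.05 and -0.61 without the same libraries in that order (limma adjusted p = 0.291, 0.0578 and 0.293). For Jun it was -0.41 without JNKi 7 d replicate 1, -0.67 without DMSO 7 d replicate 1 and -0.47 without DMSO 7 d replicate 2 (limma adjusted p = 0.252, 0.0771 and 0.128). In DMSO at 7 d against 24 h Jun differed by 0.29 (limma adjusted p = 0.116). The JNK genes themselves did not pass between the arms at 7 d: Mapk8 differed by -0.20 (limma adjusted p = 0.358) and Mapk9 by 0.11 (limma adjusted p = 0.409). Without DMSO 7 d replicate 2 the Mapk8 difference was -0.45 (limma adjusted p = 0.0323). With time in DMSO, Mapk8 rose by 0.35 at 7 d (limma adjusted p = 0.0326) and Mapk9 differed by -0.06 (limma adjusted p = 0.540). The Mapk8 rise was 0.22 without DMSO 24 h replicate 1 (limma adjusted p = 0.258) and 0.10 without DMSO 7 d replicate 1 (limma adjusted p = 0.539).

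Of 19 genes of the apoptosome, the caspases and their inhibitors, 4 rose and 10 fell at 7 d against 24 h in DMSO, beside 32% higher and 28% lower of all genes, with a median of -0.20 (0.06 over all genes). Casp6, which encodes an executioner caspase, fell by 0.96 (SE 0.10, limma adjusted p = 9.83e-07). The abundant Vdac1, a channel of the outer mitochondrial membrane, fell by 0.54 (limma adjusted p = 0.000120), and Birc6 differed by -0.02 (limma adjusted p = 0.836). Between the arms at 7 d, 2 rose and 0 fell by limma, edgeR and DESeq2 alike (4 and 1 at an unadjusted limma p under 0.05), beside 10.2% of all genes called by limma: Apaf1, the scaffold of the apoptosome (0.44, limma adjusted p = 0.00768), and Birc2, which encodes the inhibitor cIAP1 (0.42, limma adjusted p = 0.0272). The Apaf1 call was lost without DMSO 7 d replicate 1 (0.40, limma adjusted p = 0.0775) or JNKi 7 d replicate 2 (0.38, 0.0780), and the Birc2 call without any 1 of the 4 libraries of 7 d (0.39 to 0.44, limma adjusted p of 0.0690 to 0.136), with differences close to those of the full fit. Of 11 death receptor genes 10 were tested, all but Tnf. At 7 d against 24 h in DMSO, 3 rose and 3 fell, again beside 59.9% of all genes called, with Fas (2.05, limma adjusted p = 9.56e-06) the largest rise and the adaptor Tradd (-0.81, limma adjusted p = 0.000110) the largest fall. Between the arms at 7 d, Cflar, which encodes the caspase-8 inhibitor c-FLIP, rose by 0.43 (SE 0.09, limma adjusted p = 0.00768), a call that was lost without JNKi 7 d replicate 2 (0.38, limma adjusted p = 0.0768). In DMSO at 7 d against 24 h Cflar passed narrowly (0.22, limma adjusted p = 0.0463) and did not by edgeR or DESeq2 (adjusted p = 0.0749 and 0.0664). At 24, 48, 72 and 96 h limma called 0 genes of the 4 lists between the arms, beside 1, 5, 4 and 2 at an unadjusted p under 0.05; of all genes it called 0.072% at 72 h and 0.0072% at 96 h. The edgeR test called 0 at these times, and DESeq2 called 1, at 72 h.

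In JNKi the lists changed with time in similar numbers. At 7 d against 24 h, 3 other BCL2 family genes rose and 2 fell, 7 regulators rose and 7 fell, 4 apoptosome genes rose and 8 fell, and 3 death receptor genes rose and 2 fell (limma adjusted p under 0.05), beside 31.7% higher and 26.3% lower of all genes. Whether these changes differ between the arms was not tested.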

How the data were processed

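RNA sequencing of 20 libraries was used (JNKi or DMSO at 5 times, in duplicate). Sample titles gave the groups, times and replicate numbers, and the 15 libraries of the TGF-β time course were not used here. Tools named in the submitters' processing notes, without versions or roles, are TopHat, HTSeq and DESeq, with mm9 as the build; how low genes were removed, and strand, is not given in the sources used here. For each gene and library the authors deposited a signal, the read count after their normalization, called normalized reads here. Within a library the values are multiples of what 1 read is worth. Dividing by it gave whole reads (within 0.1) for 100% of the values, from which the library depths were summed.

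The 10 genes and the 4 gene lists were chosen with earlier results of these data known. The log2 of the deposited value plus a pseudocount of 1 was fitted by limma 3.58.1 under R 4.3.3, using an intensity trend and 1 mean per group over all 20 libraries. Genes whose mean reached 10 in any group were tested, 13896 in all, with the 10 genes among them. Tests were two-sided, with Benjamini-Hochberg adjustment over those genes and a threshold of 0.05. On this scale changes of low genes are understated; SE stands for the standard error from the model.

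Other genes were named by a rule: up to 2 called genes of a list with the largest change, up to 2 with the highest mean, and always Jun, Mapk8 and Mapk9; a gene that the rule named is not reported here. Likeness to Bcl2l15 used genes with a group mean of at least 50. Alternatives were pseudocounts of 0.5 and 8, filters at 50 and none, no trend, TMM rescaling, the compared groups alone, a replicate block, each library left out, and edgeR 4.0.16 and DESeq2 1.42.0 on the recovered reads. For JNKi against DMSO at 24, 48, 72 and 96 h and 7 d, limma called 0, 0, 10, 1 and 1414 genes, edgeR 0, 0, 15, 1 and 1589, and DESeq2 1, 2, 105, 34 and 1581. Alternatives for list genes were chosen after seeing the data. Promoters and models came from RefSeq (GRCm38.p6) and GENCODE M21 (GRCm38), used for names, lengths and sequence only.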

Additional observations from a re-analysis of the deposited data

Results flagged for a closer look

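The Bcl2l15 difference between the arms was below 0 at 24 h and above 0 later, without overlap at any time. This is a description and does not establish a reversal. The differences from 72 h on chose the gene, and those at 24 h and 48 h did not pass the test over all genes. Of all genes tested 27.1% did not overlap at 24 h and 29.2% at 48 h. At 72 h, 96 h and 7 d the shares were 36.4%, 39.4% and 58.2%. Separation at a given time thus does not set Bcl2l15 apart. JNKi minus DMSO was -0.67 on the log2 scale at 24 h, whereas it was 1.06 at 48 h, then 1.50 at 72 h, 0.66 at 96 h and finally 1.98 at 7 d. The change with time was also opposed between the arms: at 96 h against 24 h it was 0.45 in JNKi and -0.88 in DMSO, and at 7 d against 24 h it was 2.17 in JNKi and -0.48 in DMSO. With each library left out in turn the 24 h difference was -1.01 to -0.34, the 96 h change in JNKi was 0.11 (without JNKi 24 h replicate 1) to 0.78 (without JNKi 24 h replicate 2), and the 7 d change in DMSO was -0.75 to -0.21. The difference between these changes was not tested, because the choice of the gene used JNKi against DMSO from 72 h.

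Bcl2l1 was higher in both JNKi libraries than in both DMSO libraries at 72 h (0.20) and at 7 d (0.17), and lower at 96 h (-0.057). Bid was higher in JNKi at 72 h (0.23) and lower at 96 h (-0.10), again without overlap. The model SE was 0.10 for Bcl2l1 and 0.09 for Bid. Of all genes tested 36.4% did not overlap at 72 h, 39.4% at 96 h and 58.2% at 7 d, so the separation does not set these genes apart. Left-out libraries moved these values: Bcl2l1 was 0.089 (without DMSO 72 h replicate 2) to 0.32 (without DMSO 72 h replicate 1) at 72 h and -0.091 to -0.024 at 96 h, and Bid was 0.15 (without JNKi 72 h replicate 2) to 0.32 (without JNKi 72 h replicate 1) at 72 h and -0.13 to -0.076 at 96 h. The differences between times were not tested.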

How the results depend on the processing

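There were 30 settings (10 alternatives and 20 fits with 1 library left out) and 90 comparisons of the 10 genes. Of 2700 values 2668 kept their side of the threshold or, where untested, moved by less than the spread of the replicates. Among these are 52 values that were not called and changed sign. Of the rest 25 lost a call, 4 gained one and 3 moved, and none reversed. Many settings, such as no trend or a left-out library of another group, cannot change a log2 difference. They change only its p, so part of this agreement was fixed in advance. Leaving out a library gives a group with 1 sample, which is assumed to vary like the others. The genes called in JNKi at 7 d against 24 h then numbered 3 to 6 (3 without JNKi 24 h replicate 1). Bcl2l15 at 72 h was 1.38 with a pseudocount of 8, which shrinks low values by construction. The Bcl2l1 rise in DMSO at 96 h missed the threshold with no filter (limma adjusted p = 0.0540) and no trend (0.0564). The Bmf fall at 7 d missed it in DMSO with no filter (0.0592), no trend (0.0654) or the groups alone (0.0718), and in JNKi with no trend (0.0517). With the groups alone Bik missed it in DMSO (0.0853) and passed it in JNKi (0.0437). Between the arms at 7 d, Ddit3 and Trib3 missed it with no filter (0.0682 and 0.0699) and no trend (0.0871 and 0.0921), and Jun with no trend (0.0663). In DMSO at 7 d, Bad missed it with no filter (0.0690), no trend (0.0727) or the groups alone (0.140), and Mapk8 with no trend (0.0523) or the groups alone (0.156). The cause was not tested.

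Replicate numbers are shared by the arms. Replicate differences correlated between the arms by 0.73, 0.59, 0.72 and 0.53 at 24 to 96 h and by 0.07 at 7 d, over 9605 genes. Same-numbered samples thus deviated together at 24 to 96 h and not at 7 d; as the labels do not say what a number marks, the fit without the block was kept. With the replicate block the genes called numbered 0 at 24 h, 0 at 48 h, 7 in DMSO at 96 h, 7 in DMSO at 7 d, 5 in JNKi at 96 h and 6 in JNKi at 7 d, and no call of the 10 genes changed; among the list genes named it added Jun in DMSO at 7 d (limma adjusted p = 0.0184) and Fas between the arms at 7 d (0.00770). Over all genes it called 19, 15, 334, 99 and 3522 between the arms at the 5 times. The lowest counts behind a value were 2 reads for Bik and 32 for Bcl2l15.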
